A study of Mus musculus with 16 samples.

Results

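Myc, Mycn, Max, Mxd1, Mxd3, Mxd4, Mxi1, Mnt and Mga encode a network of transcription factors that meet on the same DNA sites, and these 9 genes were chosen by symbol among the 27928 genes measured by RNA-seq in mouse splenic B cells. All 9 were in the table. The cells were follicular (FO) B cells, which recirculate, and B cells of the marginal zone (MZ), which face the blood, from C57BL/6 mice aged 8 to 12 weeks. WT mice were BL6, and cKO mice were Gtf2i fl/fl with a Cre that is active in the B lineage, where it deletes the floxed alleles of Gtf2i, the gene of the transcription factor TFII-I. FO cells were sorted as CD21lo CD23hi and MZ cells as CD21hi CD23lo after negative selection of B cells, and the 4 groups (WT FO, WT MZ, cKO FO and cKO MZ) had 2 libraries each. The sources do not say that WT mice carried floxed alleles or Cre, so a difference between genotypes can belong to either as well as to the loss of TFII-I. They also do not say how many mice went into a library, so each p measures the spread between these libraries.

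Myc is a transcription factor that pairs with Max, binds the E-box CACGTG and raises genes of ribosome production, metabolism and cell division. Mxd1, Mxi1, Mxd3 and Mxd4 pair with Max in place of Myc, bind the same sites and bring Sin3 corepressors, while Mnt does so in most cell types and Mga, a very large protein with a second DNA-binding domain, joins Max in a Polycomb complex. Myc rises quickly when B cells are activated, and MZ B cells are known for dividing sooner than FO B cells when stimulated.

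Values are normalized counts, which the authors made by dividing the reads on a gene by the size factor of the library, and the libraries held 21546552 to 25083552 reads on genes. The sort was visible in Cr2 (CD21), at 22942 to 26803 normalized counts in FO and 86953 to 97087 in MZ libraries, and in Fcer2a (CD23), at 24802 to 41973 in FO and 3069 to 6708 in MZ libraries. Gtf2i was lower in both cKO libraries of each subset, at 1523 to 1889 in cKO against 1992 to 2864 in WT. Xist was at 25929.5 to 47002 in WT, at 14748 in cKO FO replicate 1 and at 21.7 to 89.7 in the other cKO libraries, and the Y-linked Ddx3y was at 0.998 to 6.34 in WT and 2682 to 5514 in cKO, so genotype and sex of the mice cannot be told apart. cKO FO replicate 1 was high in both, so sex markers also differed between the cKO FO replicates and between that library and cKO MZ. None of the 9 genes lies on the X or Y chromosome, but whether sex bears on their levels was not tested. cKO MZ replicate 1 stood apart in 8 erythroid markers, which summed to 14451 normalized counts there and 31.9 to 1080 elsewhere, and in 10 granulocyte markers, which summed to 1885 there and 44.8 to 112 elsewhere. Sums of 10 T cell markers (784 to 1321, mostly Lck at 692 to 1226) and 10 macrophage and dendritic cell markers (375 to 1377) overlapped between FO and MZ, and no marker of these 4 lists was at 0 in every library. By the test described below, single markers of these sums did differ on the log2 scale with both genotypes together. Trac (-1.48) and Itgax (-1.72) were called higher in MZ and Cd209a (2.88) higher in FO. Results are given without cKO MZ replicate 1 where it changes them.

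Promoters from RefSeq on GRCm38.p6, each 250 bases before to 50 bases after an annotated start, were available for 8 of the 9 genes (10 windows), and for Myc there was no entry. The E-box CACGTG, which reads the same on both strands, was present in the windows of 3 of these 8 genes (Mxd4, Mnt and Max), against 7.15% of 32851 promoters. The E2F motif GGCGGGAA, searched on both strands, was present in 1 of the 8 (Mxd3), against 2.19% of all promoters. The members are counted by gene over any of their windows and the percentages by single window, so the 2 are not on the same unit. Counted from the RefSeq start of the window, the E-box began at -219 in Mxd4, -123 in Mnt and -3 in Max, and the E2F motif began at -137 in Mxd3. The windows are shown because they hold the network's own site or, for Mxd3, the letters bound by the cell cycle factors of the E2F family. They run 5′ to 3′ on the strand of the gene with the motif in capitals. Each is cut 10 bases past the RefSeq or the GENCODE M21 start, whichever comes first. For Mxd4, Mnt and Mxd3 that is the GENCODE start, so positions cannot be counted back from the printed end. They lie at chr5:34187711-34187960 (minus strand) for Mxd4, chr11:74830674-74830929 (plus strand) for Mnt, chr12:76962239-76962498 (minus strand) for Max and chr13:55329814-55329981 (minus strand) for Mxd3.
Mxd4: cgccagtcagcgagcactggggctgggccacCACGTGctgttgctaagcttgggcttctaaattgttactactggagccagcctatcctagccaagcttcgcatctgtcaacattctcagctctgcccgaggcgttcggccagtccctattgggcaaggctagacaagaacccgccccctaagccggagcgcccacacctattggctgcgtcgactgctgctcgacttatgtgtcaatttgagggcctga
Mnt: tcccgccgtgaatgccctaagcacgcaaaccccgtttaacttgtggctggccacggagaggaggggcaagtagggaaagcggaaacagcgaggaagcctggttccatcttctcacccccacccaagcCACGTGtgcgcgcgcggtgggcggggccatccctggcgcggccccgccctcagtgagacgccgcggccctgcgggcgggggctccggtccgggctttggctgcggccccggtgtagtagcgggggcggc
Max: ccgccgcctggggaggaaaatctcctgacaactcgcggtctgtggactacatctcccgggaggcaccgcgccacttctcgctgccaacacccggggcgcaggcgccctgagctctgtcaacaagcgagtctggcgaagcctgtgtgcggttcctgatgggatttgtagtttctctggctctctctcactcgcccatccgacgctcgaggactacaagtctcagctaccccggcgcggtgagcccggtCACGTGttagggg
Mxd3: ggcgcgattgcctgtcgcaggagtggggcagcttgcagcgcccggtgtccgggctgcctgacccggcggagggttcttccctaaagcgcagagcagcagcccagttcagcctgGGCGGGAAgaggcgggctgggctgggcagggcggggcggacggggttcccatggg
A match says only that the letters are there, and no binding was measured.

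FO and MZ B cells were compared to see how the network differs between the subsets. Myc, Mxd4 and Mxd3 were higher in MZ B cells and Mxi1 was higher in FO B cells, while Max, the shared partner, and Mga differed by less than 0.1 on the log2 scale as deposited and by -0.12 and -0.22 after quantile normalization. Log2(normalized count + 1) was tested with limma over the 14761 genes whose mean over the libraries reached 10, and a call needed a p of 0.05 or less after Benjamini-Hochberg adjustment together with a 1.5-fold difference. With both genotypes fitted together, 4 of the 8 members tested were called (Mycn was below the minimum), where 19.5% of all tested genes were called. In WT alone 3 were called (Myc, Mxd4 and Mxi1), where 12% of all tested genes were, and in cKO alone 2 were called (Myc and Mxd4), where 13.7% were. The 4 FO libraries did not overlap the 4 MZ libraries in Myc, Mxd3, Mxd4, Mxi1 and Mnt, 5 of the 8, where 36.5% of all tested genes showed no overlap. Within WT the same 5 did not overlap (55.3% of all tested genes), and within cKO Mxd1 and Mga joined them, 7 of the 8 (65%). Within 1 genotype, with 2 libraries against 2, a two-sided exact permutation test of 1 gene cannot give a p below 0.333. Each limma p rests on the gene's own spread between libraries, moderated by the spread that limma estimates over all genes. In bulk RNA fewer cells carrying a transcript and less of it per cell cannot be told apart.

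**Figure D1:**
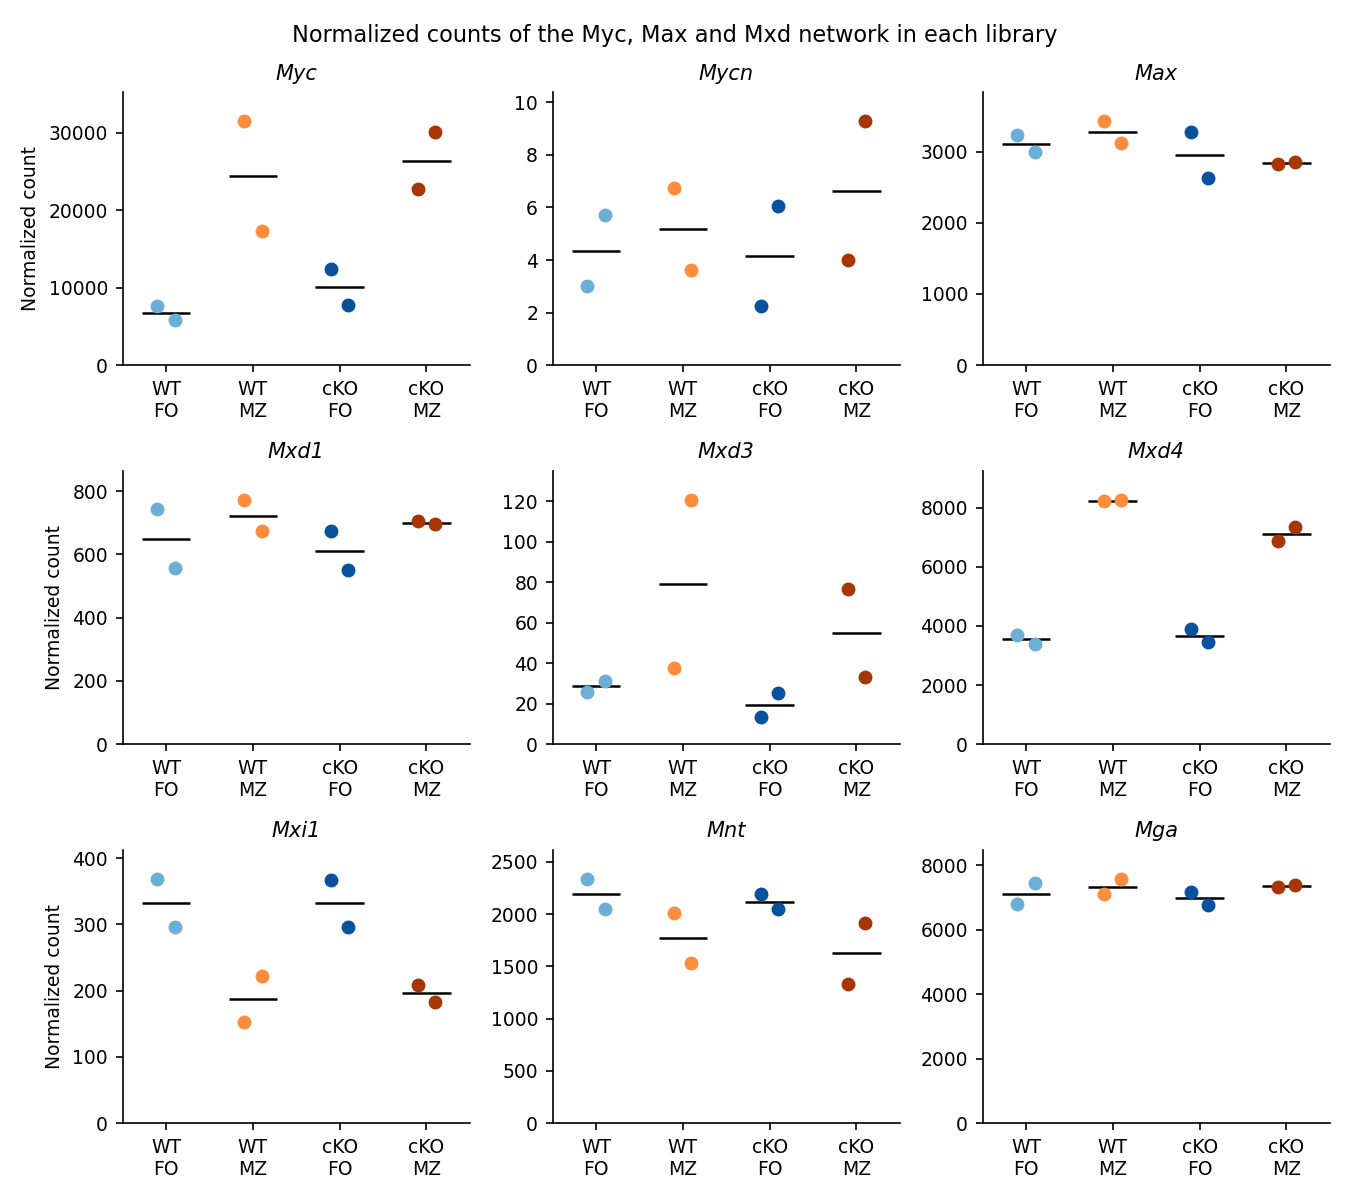
Normalized counts of the 9 genes (vertical axes, each from 0) in the 4 groups, with 1 point per library and a bar at the mean of the 2. Myc, Mxd3 and Mxd4 sit higher in MZ, Mxi1 and Mnt higher in FO, and Mycn stays below 10 normalized counts in every library.

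Myc (ENSMUSG00000022346.15, chromosome 15 from 61985391 to 61990374, plus strand, GRCm38) was measured in WT at 7652 and 5852 normalized counts in the FO libraries and 31481 and 17298 in the MZ libraries, and in cKO at 12451 and 7712 in the FO libraries and 22683 and 30145 in the MZ libraries. Every MZ library was above every FO library, and the replicates of WT MZ and of cKO FO lay far apart. The FO means were 6752 ± 1273 in WT and 10081 ± 3351 in cKO, and the MZ means 24389 ± 10029 in WT and 26414 ± 5276 in cKO (normalized counts, SD, n = 2 each). Between FO and MZ the log2 difference was -1.61 with both genotypes together (standard error 0.224, limma adjusted p = 0.000617), a level 3.05-fold higher in MZ. The WT libraries gave -1.80 (standard error 0.326, limma adjusted p = 0.00926), and the cKO libraries gave -1.42 (standard error 0.326, limma adjusted p = 0.0212). The cKO call was lost without cKO FO replicate 2 (-1.07, limma adjusted p = 0.118), without cKO MZ replicate 1 (-1.62, limma adjusted p = 0.0693) or without cKO MZ replicate 2 (-1.21, limma adjusted p = 0.125), which left 1 member called there. Each of these fits has a single library in 1 group, assumed to vary like the others.

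Mycn (ENSMUSG00000037169.15), the Myc paralog best known from neural and early B lineage cells, lies on chromosome 12 from 12936093 to 12941914. WT libraries held 3 and 6 reads in FO and 7 and 4 in MZ, and cKO libraries 2 and 6 in FO and 4 and 9 in MZ, or 2.24 to 9.28 normalized counts. All groups overlapped, and no difference was detectable at this depth.

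Max (ENSMUSG00000059436.13, chromosome 12 from 76937269 to 76962201), the shared partner of the other members, had 3230 and 2989 normalized counts in FO and 3427 and 3126 in MZ libraries of WT, with 3269 and 2630.1 in FO and 2821 and 2850.1 in MZ libraries of cKO. FO and MZ overlapped in both genotypes. FO minus MZ on the log2 scale was -0.013 with both genotypes together, with a 95% interval from -0.19 to 0.16 (limma adjusted p = 0.912). Its sign in cKO depended on the scaling, at 0.049 as deposited and -0.073 after quantile normalization.

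Of the Mxd repressors, Mxd4 (ENSMUSG00000037235.13, chromosome 5 from 34173883 to 34187720) was higher in MZ. WT FO libraries had 3704 and 3392 normalized counts and WT MZ libraries 8224 and 8252, and cKO FO libraries had 3892 and 3442 and cKO MZ libraries 6864 and 7331. The subsets were far apart, and replicates were close in all groups. Between FO and MZ the log2 difference was -1.09 (standard error 0.0743, limma adjusted p = 1.13e-05), a level 2.12-fold higher in MZ, with -1.22 for WT (limma adjusted p = 0.000251) and -0.95 for cKO (limma adjusted p = 0.000608). An antisense gene, Gm42846, shares 514 bases (6.06%) of its exons, and the strand setting of the counting is not stated.

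Mxd3 (ENSMUSG00000021485.14, chromosome 13 from 55325168 to 55329823), a member known from dividing cells in S phase, was low. FO libraries had 25.9 and 31.4 normalized counts in WT and 13.4 and 25.2 in cKO, and MZ libraries 37.6 and 120.4 in WT and 76.7 and 33 in cKO, from 12 to 133 reads a library. The MZ libraries were above the FO libraries, but only just at the nearest pair (31.4 against 33), and 1 replicate of each MZ group was well above the other. FO minus MZ on the log2 scale was -1.31 with both genotypes together (standard error 0.414, limma adjusted p = 0.0348), and neither genotype alone was called (-1.21 for WT, limma adjusted p = 0.242, and -1.40 for cKO, limma adjusted p = 0.164) unless replicate numbers were a block with those of cKO MZ exchanged, a fit added after seeing the data (limma adjusted p = 0.049 and 0.0256). The call was lost after quantile normalization (limma adjusted p = 0.0521) and without WT FO replicate 1 (limma adjusted p = 0.0758), WT MZ replicate 2 (-0.996, limma adjusted p = 0.0925), cKO FO replicate 1 (limma adjusted p = 0.0998) or cKO MZ replicate 1 (-1.05, limma adjusted p = 0.108). Its exons share 105 bases (4.43%) with Prelid1 on the opposite strand, a gene with a mean of 1591 normalized counts, so some of these reads may belong to Prelid1.

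Mxi1 (ENSMUSG00000025025.14, chromosome 19 from 53310518 to 53375810), also known as Mxd2, went the other way. FO libraries had 368 and 296 normalized counts in WT and 367 and 297 in cKO, and MZ libraries 153 and 222 in WT and 209 and 184 in cKO. Every FO library was above every MZ library. It was 1.73-fold higher in FO with both genotypes together, a log2 difference of 0.79 (standard error 0.146, limma adjusted p = 0.00277), with 0.84 for WT (limma adjusted p = 0.0402) and 0.75 for cKO (limma adjusted p = 0.0524). The WT call lay close to the threshold and was lost without a filter on low counts (limma adjusted p = 0.0607), in a fit of the 4 WT libraries (limma adjusted p = 0.121), by edgeR (adjusted p = 0.05002) and on leaving out any library other than WT MZ replicate 2 (limma adjusted p from 0.0556 to 0.181). The cKO difference was called by DESeq2 (adjusted p = 0.0267), after quantile normalization, in a fit of the 4 cKO libraries (limma adjusted p = 0.021) and without either WT MZ library (limma adjusted p = 0.0319 and 0.0331). Gm10197 shares 194 bases (2.84%) of its exons.

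Mxd1 (ENSMUSG00000001156.9, chromosome 6 from 86647042 to 86669161), which rises as many cells stop dividing and mature, had 742 and 558 normalized counts in FO and 771 and 674 in MZ libraries of WT, with 674 and 551 in FO and 705 and 696 in MZ libraries of cKO. FO and MZ overlapped in WT and did not overlap in cKO, with cKO FO lower. The log2 difference was -0.18, with a 95% interval from -0.43 to 0.064 (limma adjusted p = 0.22).

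Mnt (ENSMUSG00000000282.12, chromosome 11 from 74830920 to 74845725), the broadly expressed partner of Max, had FO values of 2334 and 2050.2 normalized counts in WT and 2189 and 2047 in cKO, and MZ values of 2014 and 1534 in WT and 1336 and 1913 in cKO. All FO libraries were above all MZ libraries, with 2047 against 2014 at the nearest pair. The log2 difference of 0.36 (standard error 0.125) passed the adjusted p by limma (0.0495) but at 1.28-fold stayed under the fold cutoff. It ran from 0.25 to 0.45 over the libraries left out, and the adjusted p did not stay under 0.05 in every alternative.

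Mga (ENSMUSG00000033943.15, chromosome 2 from 119897228 to 119969581) had FO values of 6806 and 7444 normalized counts in WT and 7170.4 and 6776 in cKO, and MZ values of 7109 and 7568 in WT and 7342 and 7378 in cKO. The subsets overlapped in WT, and in cKO both FO libraries were just below both MZ libraries. FO minus MZ on the log2 scale was -0.061, with a 95% interval from -0.18 to 0.062 (limma adjusted p = 0.412). After quantile normalization it was -0.22 (limma adjusted p = 0.0232), still under the fold cutoff.

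**Figure D2:**
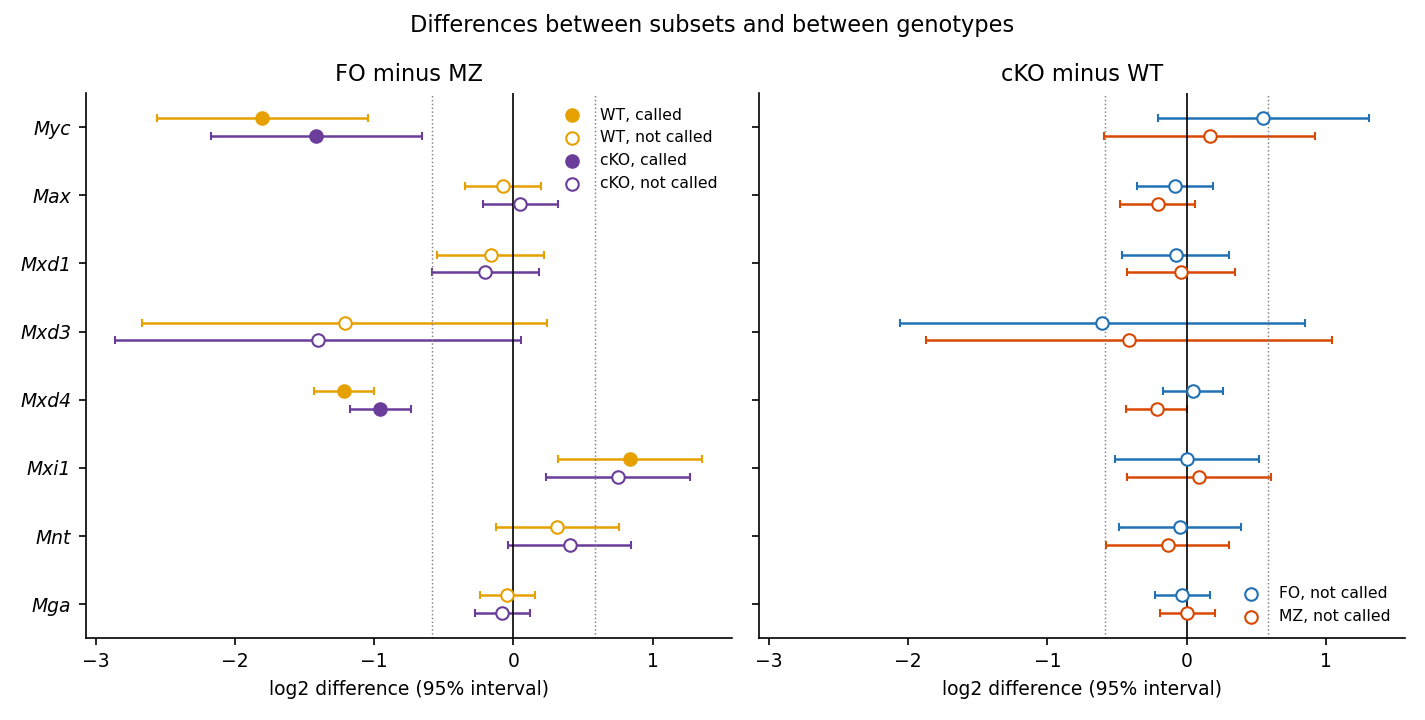
Log2 differences with 95% intervals from limma for the 8 tested members, FO minus MZ (left, by genotype) and cKO minus WT (right, by subset), with filled points for called differences and dotted lines at 1.5-fold. On the left Myc and Mxd4 are called below 0 in both genotypes and Mxi1 above 0 in WT, and on the right 0 members are called.

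Levels were compared between genes per kilobase of merged exon, which treats all exons of a gene as used. As the mean of the 8 libraries Myc had 6223 normalized counts per kilobase, above 99.2% of tested genes, followed by Max (846), Mxd4 (665), Mga (469), Mnt (416), Mxd1 (94.9), Mxi1 (38.4), Mxd3 (19.2) and Mycn (1.54). The order of the middle genes differed between subsets. In WT FO, Max (864 ± 47.4) was followed by Mnt (474 ± 43.4), Mga (464 ± 29.4) and Mxd4 (418 ± 26.1, SD, n = 2 each, normalized counts per kilobase). Mnt and Mga overlapped there, and Mxd4, at 437 and 399.8, lay just below both. In WT MZ the order was Mxd4 (971 ± 2.34), Max (911 ± 59.1), Mga (478 ± 21.2) and Mnt (383 ± 73.3), and Mxd4 and Max differed by little more than the SD of Max. In cKO FO Mnt (458), Mga (455) and Mxd4 (432) overlapped, and in cKO MZ Mxd4 (837 ± 38.9) was above Max (788 ± 5.78). Mxd4 thus lay below Max in all 4 FO libraries and above it in all 4 MZ libraries. Among the low genes, Mxi1 (22.4 to 32.5) and Mxd3 (13.9 to 50.8) overlapped in the MZ libraries. Mxd4 made up 72.0% to 75.5% of the summed level per kilobase of the 4 Mxd genes (Mxd1, Mxd3, Mxd4 and Mxi1) in FO libraries and 83.3% to 86.8% in MZ libraries.

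**Figure D3:**
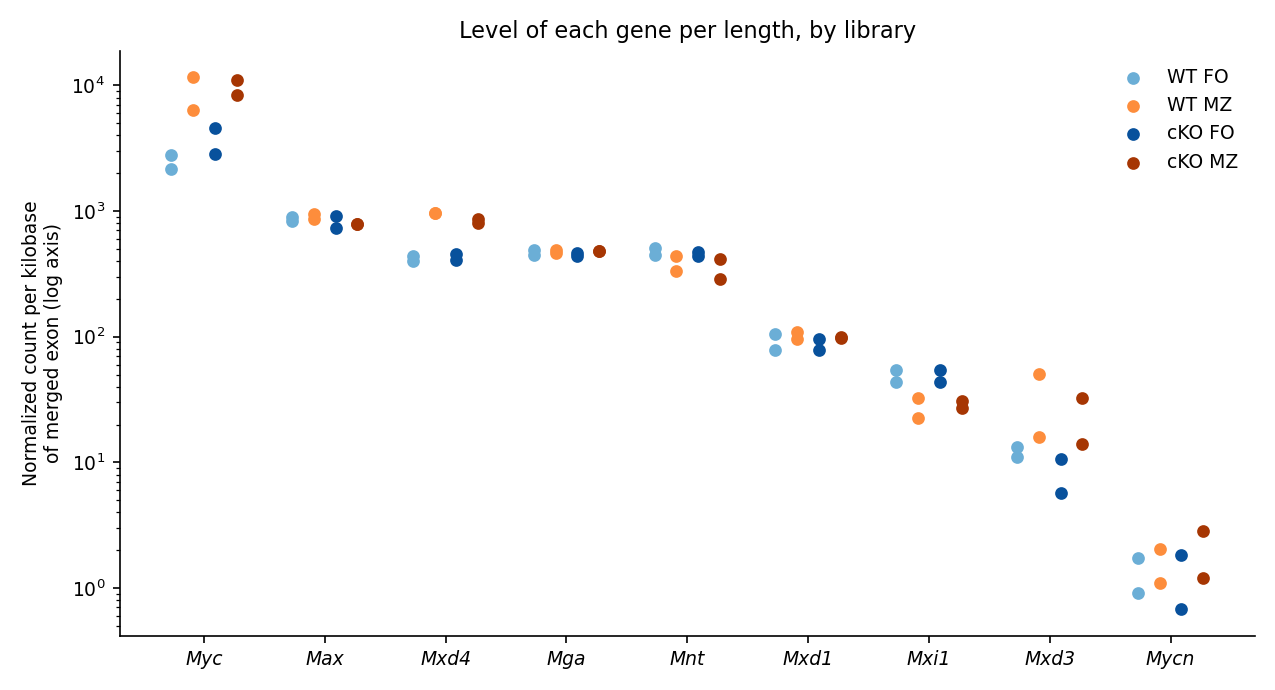
Normalized counts per kilobase of merged exon (vertical log axis) for the 9 genes in order of their mean, with 1 point per library coloured by group. Myc lies above the other members in every library, and Mxd4 lies beside Mga and Mnt in FO and beside Max in MZ.

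As Myc and Mxd4 were both higher in MZ, the ratio of Myc and Mycn to the 6 antagonists (Mxd1, Mxd3, Mxd4, Mxi1, Mnt and Mga), each summed per kilobase, was taken in each library. The FO libraries had ratios of 1.81 and 1.47 in WT and 2.95 and 1.997 in cKO, and the MZ libraries 5.75 and 3.22 in WT and 4.801 and 5.85 in cKO. Every MZ library was above every FO library, by least between cKO FO replicate 1 and WT MZ replicate 2. The antagonists themselves summed to 1422 to 1555 normalized counts per kilobase in FO and 1739 to 2016 in MZ. Myc and Mycn summed to 2156 to 4583 in FO and 6368 to 11589 in MZ, so the ratio to the antagonists mostly follows Myc. The ratio of Myc and Mycn to Max was 2.59 to 5.04 in FO and 7.33 to 14.0 in MZ. As Max differed by only -0.013 on the log2 scale, this ratio largely repeats the difference in Myc. These are ratios of RNA, and protein was not measured.

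Within the MZ groups Myc and Mxd3 stood in opposite order. WT MZ replicate 2 and cKO MZ replicate 1 had the higher Mxd3 of their groups (120.4 and 76.7 normalized counts) and the lower Myc (17298 and 22683). These libraries were also highest in 25 cell cycle genes, which summed to 21635 and 20151 normalized counts there, to 11234 and 11015 in the other MZ libraries and to 7211 to 8892 in FO libraries. The erythroid and granulocyte markers summed to 365 and 51.6 normalized counts in WT MZ replicate 2, against 104 and 97.3 in WT MZ replicate 1. They summed to 14451 and 1885 in cKO MZ replicate 1, against 858 and 112 in cKO MZ replicate 2. Macrophage and dendritic cell markers summed to 1377 and 1235 in the pair, against 375 and 864 in the other MZ libraries. Jchain, a plasma cell marker, was at 3692 and 1615 normalized counts in the pair, against 305 and 524 in the other MZ libraries. The sum of 5 plasma cell markers, mostly from Irf4, went the other way, at 20373 and 26779.5 in the pair against 41216 and 37191. The part of cells carrying any of these markers in the levels of Mxd3 and Myc was not tested.

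**Figure D4:**
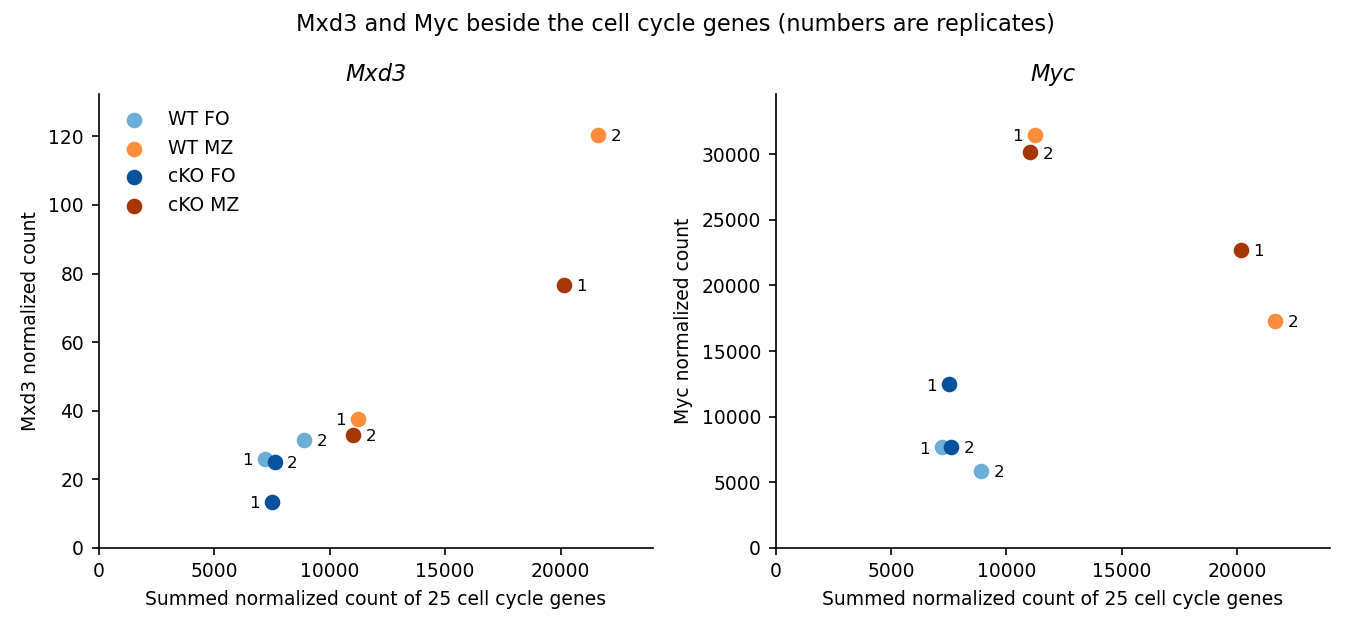
Normalized counts of Mxd3 (left) and Myc (right) against the summed normalized count of 25 cell cycle genes, with 1 point per library, coloured by group and numbered by replicate. WT MZ 2 and cKO MZ 1 lie at the far right with the highest Mxd3 and with less Myc than the other 2 MZ libraries.

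The deletion of Gtf2i was compared with WT to see whether the network responds to the loss of TFII-I. By limma 0 of the 8 members were called between cKO and WT, in FO (0.0677% of all tested genes called), in MZ (0.0339%) or with both subsets together (0.149%). By DESeq2 and edgeR the count was also 0 in each, and 0 members had an unadjusted p under 0.05 by limma. In FO B cells Myc was 1.46-fold higher in cKO, with both cKO libraries (12451 and 7712 normalized counts) above both WT libraries (7652 and 5852) by a narrow margin. Its log2 difference was 0.55 with a 95% interval from -0.21 to 1.31 (limma adjusted p = 1), and over the libraries left out it ran from 0.20 to 0.90. In MZ B cells Myc overlapped between genotypes, at 0.16 on the log2 scale with a 95% interval from -0.59 to 0.92 (limma adjusted p = 0.998), and over the libraries left out it ran from -0.27 to 0.60. Mxd3 was lower in both cKO FO libraries (13.4 and 25.2) than in both WT FO libraries (25.9 and 31.4), with a log2 interval from -2.06 to 0.85 (limma adjusted p = 1).

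In MZ B cells Mxd4 was lower in both cKO libraries (6864 and 7331 normalized counts) than in both WT libraries (8224 and 8252), by -0.22 on the log2 scale with a 95% interval from -0.43 to 0.0011 (limma unadjusted p = 0.0509, adjusted p = 0.998). Max was also lower in both cKO MZ libraries (2821 and 2850) than in WT MZ (3427 and 3126), by -0.21 with an interval from -0.48 to 0.063 (limma adjusted p = 0.998). Libraries of cKO and WT thus did not overlap for 2 of 8 members in FO, where 24% of all tested genes did not, and for 2 of 8 in MZ, where 34.5% did not. With both subsets together this held for 0 members and 2.09% of all tested genes. Mxd1, Mxi1, Mnt and Mga overlapped between genotypes in both subsets. With both subsets together the 95% intervals ran from -0.14 to 0.11 for Mga, -0.32 to 0.032 for Max, -0.25 to 0.084 for Mxd4, -0.31 to 0.18 for Mxd1, -0.38 to 0.19 for Mnt, -0.29 to 0.38 for Mxi1, -0.15 to 0.87 for Myc and -1.45 to 0.43 for Mxd3. A 1.5-fold change lies outside the interval for 6 of these 8 and inside it for Myc and Mxd3. The sign for Mga changed from -0.013 to 0.023 with quantile normalization.

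Whether FO and MZ responded differently to genotype was asked with the interaction, the FO minus MZ difference in cKO less that in WT. By limma 0 members passed, nor did any of the 14761 genes (94 of which had an unadjusted p under 0.05, none of them a member), and DESeq2 and edgeR called 0. The interaction was 0.39 for Myc (standard error 0.461, limma adjusted p = 1) and 0.26 for Mxd4 (standard error 0.132, limma adjusted p = 1), each with a smaller gap between FO and MZ in cKO. A call in 1 genotype alone, as for Mxi1, is thus not shown to differ from the other genotype.

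Genes that act on or with the network were taken from 8 lists, described here by counts beside the 19.5% of all genes called between FO and MZ. Of 38 Myc target genes, most of them in ribosome production and metabolism, 5 were called higher in MZ and 1 higher in FO, and 25 had an unadjusted p under 0.05, where 6990 of the 14761 tested genes had one. Odc1, the first enzyme of polyamine synthesis, had a log2 difference of -1.34 between FO and MZ, Srm, the spermidine synthase, -0.80, Cdk4, a kinase of G1 phase, -0.62, Npm1, the nucleolar chaperone, -0.61, and Eif4a1, a helicase of translation initiation, -0.63. Tfrc, the transferrin receptor, was the target higher in FO, by 0.76. The median of the list was -0.29 against 0.0045 for all tested genes, and 34 of the 38 lay below 0 against 49.5% of all tested genes. Without cKO FO replicate 2, 3 were called higher in MZ, and without the fold cutoff 21, where 2847 of the 14761 tested genes were then called higher in MZ.

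**Figure D5:**
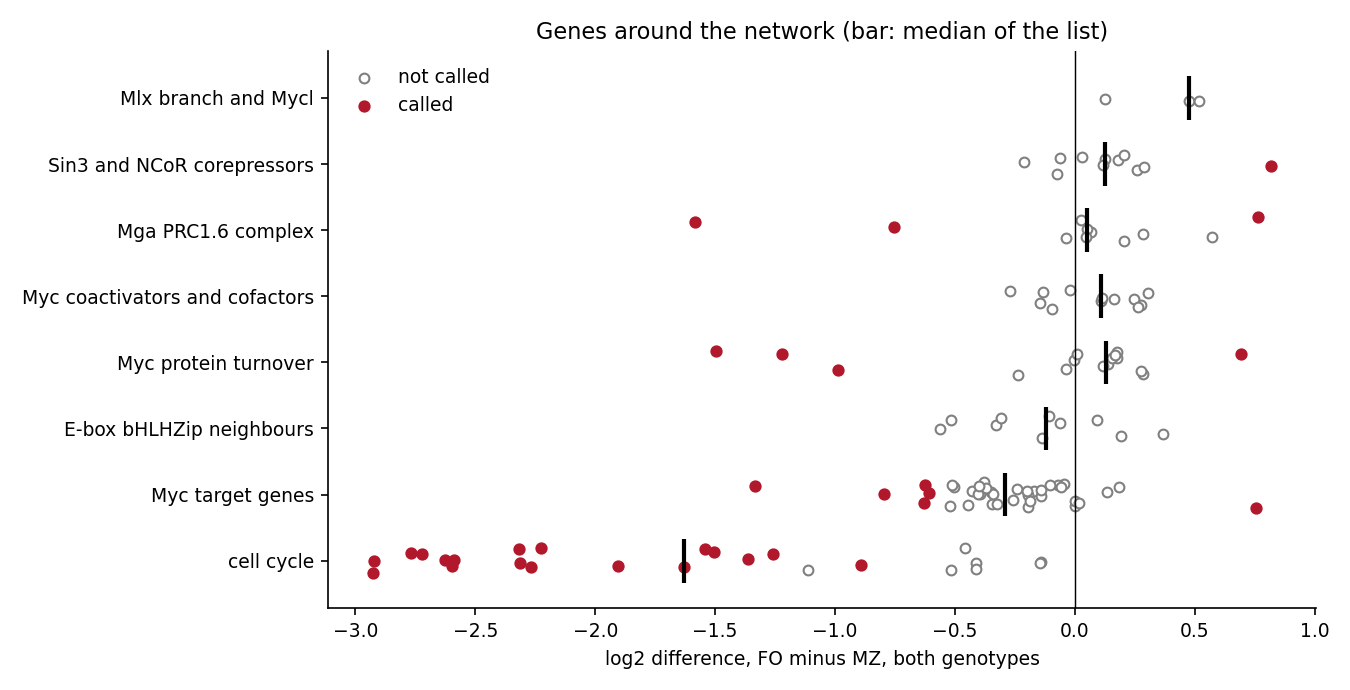
FO minus MZ on the log2 scale (horizontal axis, both genotypes) for the tested genes of 8 lists around the network, with called genes filled and a bar at each median. The 25 cell cycle genes (median -1.63) and 34 of the 38 Myc targets (median -0.29) lie below 0, higher in MZ, and the medians of the other lists lie between -0.12 and 0.47.

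Of 25 cell cycle genes 18 were called higher in MZ and 0 higher in FO, with a median log2 difference of -1.63. Mybl2 (-2.23), Bub1 (-2.92), Tpx2 (-2.27) and Tyms (-1.63), of the S phase and mitotic programmes, were among them. Without WT MZ replicate 2 the count was 17, and without cKO MZ replicate 1 it was 16.

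Few corepressors and cofactors were called between FO and MZ. Of 11 Sin3 and NCoR subunits, through which Mxd proteins repress, only Sap30 was called by limma, higher in FO by 0.82 on the log2 scale, and of 12 Myc coactivators and cofactors 0 were called by limma, DESeq2 or edgeR (6 with an unadjusted p under 0.05, against 6990 of all 14761). Of 11 subunits of the Polycomb complex of Mga, Rnf2, a ubiquitin ligase of Polycomb complexes, was higher in FO (0.76) and Tfdp1 and E2f6, of its E2F arm, were higher in MZ (-1.58 and -0.76). Without WT FO replicate 2, WT MZ replicate 1 or cKO FO replicate 2, 2 subunits were called higher in FO. Of 16 genes of Myc protein turnover, Usp28, a deubiquitinase that stabilizes Myc, was higher in FO (0.69), and the ubiquitin ligase Trim32 (-1.50), the phosphatase inhibitor Cip2a (-1.22) and the kinase Pim1 (-0.99) were higher in MZ.

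Of 10 tested E-box factors outside the network, such as Usf1 and Tfe3, limma called 0 and edgeR and DESeq2 called 1 each, and 4 had an unadjusted p under 0.05, a level that 6990 of the 14761 tested genes passed. Of the parallel Mlx branch and the paralog Mycl, 3 of 4 genes were tested and 0 were called by limma, DESeq2 or edgeR (1 with an unadjusted p under 0.05, against the same 6990). Each list had a count of 0 between cKO and WT with both subsets together, by limma, DESeq2 and edgeR, with 3 of 38 Myc targets at an unadjusted p under 0.05, a level that 1230 of the 14761 tested genes passed.

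Over the 8 libraries, which fall into a low FO and a high MZ cluster for Myc, the tested genes with the highest Pearson r with Myc on the log2 scale were Napb (0.987), Ank3 (0.985), Adi1 (0.985), Ppan (0.983) and Etv6 (0.983). Those most opposed were Smc1a (-0.992), Ccnj (-0.987) and Nsmce1 (-0.984). Napb, a low gene, had 7.98 and 4.76 normalized counts in the WT FO and 45.3 and 19.9 in the WT MZ libraries, and Ppan, a ribosome biogenesis factor, had 2089 and 1966 in the former and 2666 and 2357 in the latter. Among the members Mxd4 had the highest r with Myc (0.918) and Mxi1 the lowest (-0.854). These values describe a likeness over libraries that share their subset.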

How the data were processed

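RNA of sorted FO and MZ B cells was sequenced after ribosomal RNA depletion as single-end reads of 50 bases, in 8 libraries. The authors aligned reads with HISAT2 to mm10 (GRCm38), counted them on genes with featureCounts and HTSeq and deposited a signal table of counts normalized with DESeq2 size factors. Versions and the strand setting are not given in the sources used here. The table held 27928 genes after 256343 blank lines were left out, and whole reads were recovered for 100% of values (within 0.01 reads). Positions are from GENCODE M21, in which 27347 identifiers were found.

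Log2(normalized count + 1) was fitted with limma 3.58.1 (eBayes with trend) in R 4.3.3 for the 4 groups in 1 fit, for genes with a mean of at least 10. The fits of both genotypes or both subsets had the other factor as a term. The pseudocount makes differences of low genes smaller. Intervals are limma 95% intervals, not adjusted for the number of genes. Alternatives were a pseudocount of 0.5, no filter, quantile normalization, TMM factors, a fit of the 4 libraries of 1 comparison, a block for replicate numbers, DESeq2 1.42.0 and edgeR 4.0.16 (quasi-likelihood) on recovered reads, no fold cutoff, and leaving out 1 library at a time. A block with the numbers of cKO MZ exchanged was added after seeing the data. Simulated data were run through limma, DESeq2 and edgeR for FO against MZ in WT only, and no result here rests on them.

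The members and the gene lists were chosen with earlier results of these data known. Named genes are the members, Gtf2i, Cr2, Fcer2a, up to 4 called genes with the smallest p per list and direction, and the 5 most like and 3 most unlike Myc. Eif4a1, Usf1, Tfe3, Mycl, Xist, Ddx3y, Jchain, Irf4, Lck, Trac, Itgax and Cd209a were named outside that rule. The 8 ATAC-seq samples were not analysed here, and the locus that drives Cre is not reported here.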

Additional observations from a re-analysis of the deposited data

How the results depend on the processing

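For the 56 log2 differences (8 members in 7 comparisons), 480 values came from alternatives other than leaving out a library or the fold cutoff. Direction and side of the threshold were kept in 468 of them, with 4 weaker, 6 stronger and 2 of opposite sign. The 2 were Max between FO and MZ in cKO (-0.073) and Mga between cKO and WT (0.023), both with quantile normalization. Without the fold cutoff Mnt was also called between FO and MZ with both genotypes together. Quantile normalization moved the median of all genes between FO and MZ by 0.114 (0.104 in WT and 0.119 in cKO), and TMM by at most 0.0116. Leaving out a library kept 376 of 448 values, with 56 of opposite sign in 27 differences, none of them called. The number of members called on leaving out a library ran from 3 to 4 between FO and MZ, from 2 to 3 in WT and from 1 to 3 in cKO, where the cause of the lost calls was not tested, and stayed at 0 between cKO and WT and in the interaction. The log2 differences that changed sign ran, over the libraries left out, between cKO and WT with both subsets together -0.14 to 0.025 for Mxd1, -0.071 to 0.14 for Mxi1, -0.19 to 0.020 for Mnt and -0.035 to 0.017 for Mga. They ran between cKO and WT in FO -0.24 to 0.073 for Max, -0.28 to 0.13 for Mxd1, -0.042 to 0.13 for Mxd4, -0.16 to 0.16 for Mxi1, -0.14 to 0.046 for Mnt and -0.095 to 0.034 for Mga. They ran between cKO and WT in MZ -0.27 to 0.60 for Myc, -0.14 to 0.056 for Mxd1, -1.24 to 0.41 for Mxd3, -0.18 to 0.35 for Mxi1, -0.40 to 0.12 for Mnt and -0.040 to 0.050 for Mga. They ran between FO and MZ with both genotypes together -0.088 to 0.037 for Max. They ran between FO and MZ in WT -0.37 to 0.042 for Mxd1 and -0.11 to 0.021 for Mga. They ran between FO and MZ in cKO -0.11 to 0.21 for Max. They ran in the interaction -0.046 to 0.82 for Myc, -0.033 to 0.28 for Max, -0.24 to 0.17 for Mxd1, -1.02 to 0.64 for Mxd3, -0.35 to 0.18 for Mxi1, -0.17 to 0.35 for Mnt and -0.10 to 0.030 for Mga.

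The shared replicate numbers were not taken to pair the samples. The correlation of the replicates' deviations was 0.591, 0.294 and 0.161 between the 3 groups other than cKO MZ, and -0.172, -0.296 and -0.0015 between these and cKO MZ. With the replicate block 4 members were called between FO and MZ, 3 in WT, 2 in cKO and 0 between genotypes, and with the cKO MZ numbers exchanged 4 in each fit of FO against MZ, with Mxd3 added in WT (limma adjusted p = 0.049) and Mxd3 and Mxi1 in cKO (0.0256 and 0.0364). Over all genes, DESeq2 called 78 between cKO and WT against 22 by limma (25 against 10 in FO and 48 against 5 in MZ), the exchanged block 50 (16 and 12), and limma on the 4 libraries compared 1014 between FO and MZ in WT against 1776 and 4 between cKO and WT in FO. The share called higher in FO moved from 1172 of 2877 to 1449 of 2893 with quantile normalization. Mycn had at most 9 reads a library, and at this depth no difference in it was detectable.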
